A study of Homo sapiens with 8 samples.

Results

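The mRNA levels of 28 genes of cholesterol synthesis and its control were followed in NB4, an established human line of acute promyelocytic leukaemia whose PML-RARA fusion protein blocks maturation until all-trans retinoic acid (ATRA) is given. The genes were chosen by name from the pathway, out of 22627 gene symbols in the deposited tables. They comprise 19 enzymes of cholesterol synthesis, 7 genes of the SREBP system and of sterol handling, and 2 enzymes of fatty acid synthesis that SREBP also controls. All 28 were listed, and all 28 reached the mean of 1 FPKM over the groups that was asked of the 11052 genes compared. Other genes of the pathway were not analysed here.

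Every group had been infected with a lentivirus, carrying either a short hairpin RNA against the lysosome and autophagy regulator TFEB (shTFEB) or a scrambled hairpin (shScr). Cells of both kinds, kept in medium with fetal calf serum, were given ATRA at 1 µM or its ethanol vehicle and collected at 72 h, and the 4 groups are named by hairpin and treatment. Groups follow the sample descriptions: for shScr cells given ATRA, the 2 sample titles name vehicle as well as ATRA, so the shScr ATRA values rest on the descriptions. Wild-type cells were not analysed here. The labels name 2 samples per group, 8 in all, and do not say how many hairpins or clones each line stands for. For each transcript model a group has 1 deposited level in FPKM, the fragments per kilobase of model scaled to library depth. The spread between samples is therefore unknown, and neither tests nor p-values are given.

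Differences are therefore sizes of ratios between groups. Ratios are log2 values taken after adding 1 FPKM to both levels, unless a plain fold is named, and "rose" and "fell" are kept for ratios of at least 1 in size, a 2-fold mark. The added 1 FPKM understates the ratio of weakly expressed genes.

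Sequencing depth, read from the spacing of the lowest values, relative to shScr vehicle was 1.05 for the shScr ATRA group, and 1.17 (vehicle) and 0.911 (ATRA) for the shTFEB line. TFEB mRNA stood at 1.20 and 19.4 FPKM in shScr cells under vehicle and ATRA, and at 1.35 and 8.44 FPKM in shTFEB cells. It was thus at 0.436 of the shScr level under ATRA but at 1.13 of it under vehicle, so the vehicle group is called "labelled shTFEB" below. Summed markers of promyelocytes were 4501, 832, 2870 and 710.1 FPKM in the groups ordered as shScr vehicle, shScr ATRA, labelled shTFEB vehicle and shTFEB ATRA. Most of each sum was MPO, at 3871, 662, 2462 and 594 FPKM. MPO, PRTN3, AZU1 and MS4A3 were each more than 2-fold lower under ATRA in both lines. CD33 was not lower, at 23.4, 29.3, 25.3 and 25.6 FPKM, and ELANE, 1 of the 6, stayed near 0. Granulocyte maturation markers summed to 62.6, 1184, 56.0 and 769 FPKM, and cell division markers to 573, 346, 544 and 390.3 FPKM. Of 5 lymphoid, 5 erythroid, 4 megakaryocytic, 4 fibroblast and endothelial and 3 hepatocyte markers, 1, 1, 1, 1 and 0 reached 1 FPKM in any group, and MS4A1, HBB, HBA1, PF4, GP9, COL1A2 and TTR are listed at 0 in all of them. All 3 epithelial markers reached 1 FPKM in a group, at sums of 21.1 to 34.1 FPKM, of which KRT18 was the most. KRT8 is listed at 0 in both vehicle groups and at 3.32 and 4.71 FPKM in shScr ATRA and shTFEB ATRA. Of 4 markers of steroid-making and fat cells only STAR, the carrier of cholesterol into mitochondria, was above 1 FPKM; it had 14.3 and 2.42 FPKM in shScr and 23.2 and 8.68 FPKM in shTFEB cells under vehicle and ATRA. Such bulk values cannot tell fewer cells of a kind from less RNA per cell.

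Cholesterol is built from acetyl-CoA through mevalonate and isoprenoid units to squalene, which is folded into lanosterol and trimmed to cholesterol. The enzymes are controlled as a set by the SREBP transcription factors: when membranes lack sterol, the escort protein SCAP carries SREBP from the endoplasmic reticulum to the Golgi, where proteases free its active part, and when sterol is plentiful the INSIG proteins hold SCAP back. Dividing leukaemia cells need the pathway for membranes, while mature phagocytes also take up and store lipid.

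The members that rose with ATRA were 1 gene of the SREBP pair and 1 sterol carrier. SREBF1, which encodes the SREBP form best known for fatty acid genes, stood at 15.7 and 34.5 FPKM in shScr cells with vehicle and ATRA, and at 13.9 and 31.2 FPKM in the labelled shTFEB cells. Both ATRA groups lay above both vehicle groups, by 2.19-fold in shScr cells (log2 ratio 1.08) and 2.25-fold in shTFEB cells (1.11), so that SREBF1 rose in each line. Its locus is hg19 chromosome 17, 17714663 to 17740325, where it shares 103 bases with RAI1 (3.12 to 4.83 FPKM). STARD4, a carrier that moves cholesterol between membranes inside the cell, is on hg19 chromosome 5, 110834022 to 110848157. In that order, which is kept for all values given as 4 numbers, it had 8.53, 19.3, 8.48 and 29.8 FPKM, a rise of 2.26-fold in the shScr line (log2 ratio 1.09) and 3.51-fold in the shTFEB line (1.70). Between the lines the vehicle groups had a ratio of 0.994 and the ATRA groups differed by 1.55-fold. STARD4 shares 234 bases with its antisense gene STARD4-AS1, listed at 0 in 3 groups and at 1.62 FPKM in labelled shTFEB vehicle, and without strand information their fragments cannot be told apart.

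The promoter windows of both genes are shown because these were the only members that rose in both lines. FASN, which fell in both, had no window in the reference used, nor had ACAT2, FDFT1 and SQLE, so their promoters were not searched. They run from 250 bases before to 50 after a RefSeq start (build GRCh38.p14), 5′ to 3′ on the strand of the gene, SREBF1 at chr17:17836937-17837236 and STARD4 at chr5:111512486-111512785, both on the minus strand. Capitals mark the GC box GGGCGG, a site of Sp1-type factors, and the CCAAT box CCAAT, a site of NF-Y, on either strand.
SREBF1: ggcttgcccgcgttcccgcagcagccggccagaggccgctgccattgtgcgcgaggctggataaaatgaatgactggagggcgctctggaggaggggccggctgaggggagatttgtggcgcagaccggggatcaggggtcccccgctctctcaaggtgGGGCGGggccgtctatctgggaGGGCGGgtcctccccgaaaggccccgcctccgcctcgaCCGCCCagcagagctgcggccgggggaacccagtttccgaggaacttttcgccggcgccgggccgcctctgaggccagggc
STARD4: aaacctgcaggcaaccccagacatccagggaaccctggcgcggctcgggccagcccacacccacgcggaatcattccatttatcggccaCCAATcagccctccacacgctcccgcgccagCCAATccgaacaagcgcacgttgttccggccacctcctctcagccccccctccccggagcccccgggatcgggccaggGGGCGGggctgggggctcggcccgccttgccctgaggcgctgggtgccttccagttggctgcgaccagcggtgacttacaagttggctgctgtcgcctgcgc
SREBF1 has 3 GC boxes and 0 CCAAT boxes in this window, and STARD4 has 1 GC box and 2 CCAAT boxes. Neither window holds TCACNCCAC, searched on both strands as 1 form of the sterol regulatory element that SREBP binds. Other forms of the element, and bases outside the windows, were not searched, so an SREBP site is not excluded.

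SREBF2, which encodes the SREBP form best known for cholesterol genes, had 47.1, 68.3, 47.5 and 67.8 FPKM. ATRA groups were 1.45-fold (shScr) and 1.43-fold (shTFEB) above vehicle, under the 2-fold mark (log2 ratios 0.53 and 0.50). The ratio of shTFEB to shScr was 1.01 under vehicle and 0.993 under ATRA. Among the 24 members with a promoter window, SREBF2 alone matched the searched form of the sterol regulatory element, which 1.13% of all 35116 windows hold. Its window (GRCh38.p14, chr22:41832855-41833154, plus strand) is printed for that match, with the element and a CCAAT box on the other strand in capitals, 18 bases apart.
SREBF2: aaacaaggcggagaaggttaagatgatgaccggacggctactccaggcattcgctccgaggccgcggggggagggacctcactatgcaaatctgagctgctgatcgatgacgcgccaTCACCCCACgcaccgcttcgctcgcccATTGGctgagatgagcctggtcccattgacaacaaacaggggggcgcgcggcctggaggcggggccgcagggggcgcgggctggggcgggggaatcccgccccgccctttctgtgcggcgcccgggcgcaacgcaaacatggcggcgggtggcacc
The other letters searched, on both strands, were the GC box, found for 23 of the 24 members and in 45% of all windows, the CCAAT box, found for 19 and in 34.6% of all windows, and the E-box CACGTG, found for 4 (INSIG1, LSS, SC5D and SCAP) and in 7.26% of all windows. Some members have several windows, 32 in all, of which 90.6% held a GC box, 65.6% a CCAAT box and 15.6% an E-box. The E-box is the core of the sequence that TFEB binds. Of the 4 members with it, INSIG1 was chosen for printing after values were seen. Its ATRA ratios were 0.32 in shScr and 0.66 in shTFEB cells. Those of LSS were −0.30 and −0.11, of SC5D 0.27 and 0.38, and of SCAP −0.09 and −0.18. The stretch of the INSIG1 window that holds the E-box (GRCh38.p14, chr7:155297798-155297857, plus strand) is given with the E-box in capitals.
INSIG1: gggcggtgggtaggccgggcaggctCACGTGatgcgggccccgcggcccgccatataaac
A match is a string of letters and not a binding site.

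INSIG1, itself a sterol-controlled gene whose product retains SCAP, stood at 96.7, 121, 91.2 and 144 FPKM. The ATRA groups were above the vehicle groups in both lines, by 1.25-fold (shScr) and 1.58-fold (shTFEB), with neither ratio past the mark (0.32 and 0.66). INSIG2, the second retention protein, was expressed at a lower level, 8.50, 11.0, 7.38 and 10.9 FPKM, with ratios of 0.34 and 0.51. Its ATRA groups differed by a factor of 0.992 between the lines. SCAP, the escort, lay between 14.9 and 18.5 FPKM, a highest-to-lowest ratio of 1.25 and the smallest among the 7 control genes. MYLIP, a ubiquitin ligase that degrades lipoprotein receptors and is a target of the sterol sensor LXR, had 9.45, 7.83, 10.3 and 7.47 FPKM, lower under ATRA in both lines (−0.24 and −0.42). It shares 69 bases with the microRNA gene MIR4639, listed at 54.8, 157, 93.4 and 180 FPKM. Fragments of the shared bases cannot be assigned, and the part of MIR4639 in the result was not tested.

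**Figure D1:**
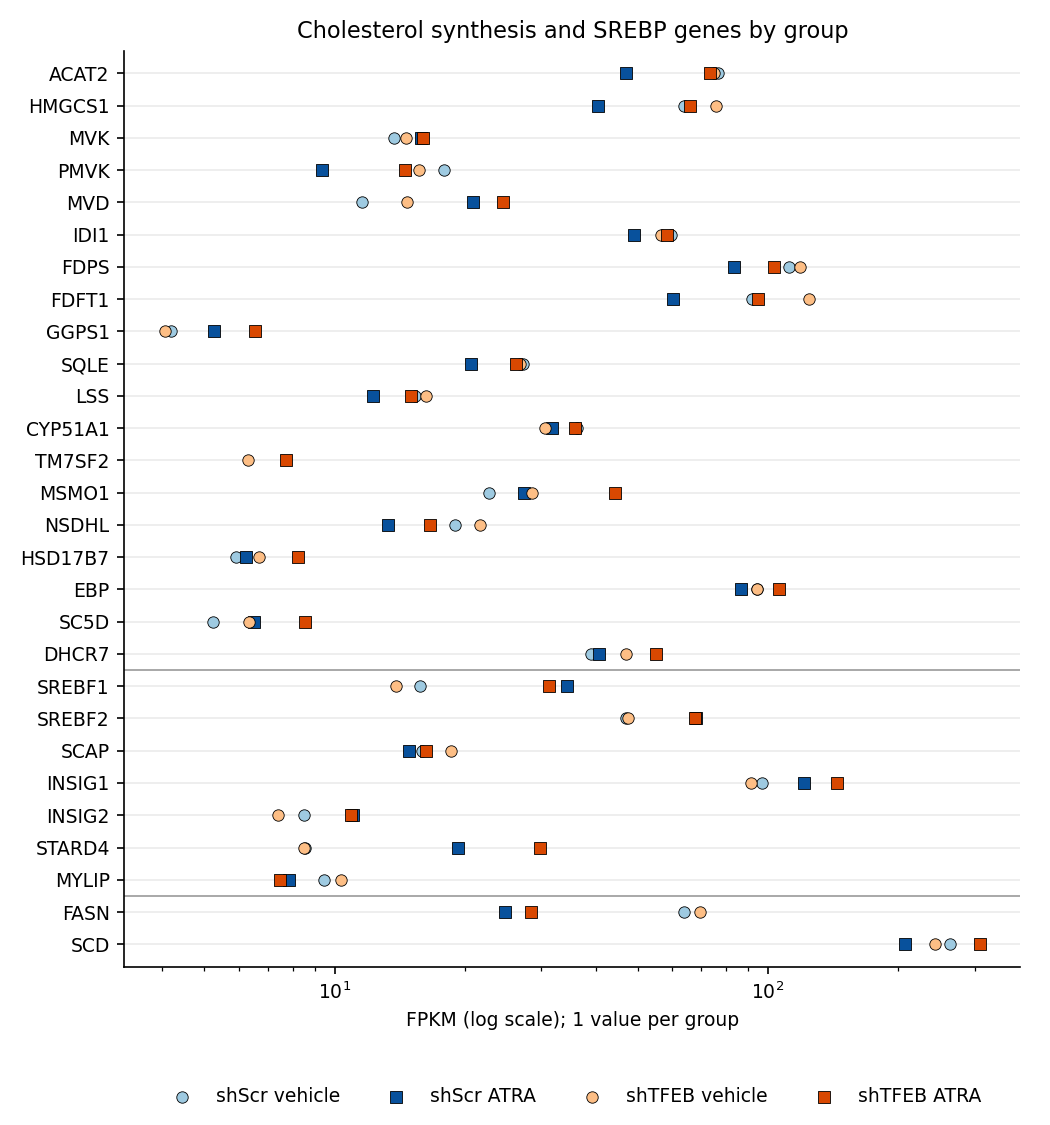
FPKM of each of the 28 genes on a log axis, 1 point per group, with enzymes of cholesterol synthesis at the top, SREBP and sterol-handling genes in the middle and fatty acid enzymes at the bottom; blue is shScr, orange shTFEB, circles vehicle and squares ATRA. For SREBF1, SREBF2, INSIG1, INSIG2, STARD4, MVD, MVK, GGPS1 and SC5D both squares lie right of both circles. Both lie left for FASN, ACAT2, PMVK, FDPS, SQLE, LSS, NSDHL and MYLIP, in some of these by little. The 0 FPKM of TM7SF2 in the shScr groups are not drawn.

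Of the 28 members 2 rose (SREBF1 and STARD4) and 1 fell (FASN) with ATRA in shScr cells, and the same 3 genes passed the mark in the same directions in shTFEB cells. That is 10.7% of the members in each line, below the 27.7% of all compared genes that passed the mark in shScr cells (12.5% higher, 15.2% lower) and the 22% in shTFEB cells (11.5% higher, 10.5% lower). The split over all genes depends on scaling: in shScr cells 1384 rose and 1676 fell as deposited (45.2% of these higher), and 1603 and 1259 after median-of-ratios rescaling (56.0% higher). Nearest under the mark were PMVK on the lower side, at −0.87 in shScr cells, and MVD on the higher side, at 0.80 in shScr and 0.70 in shTFEB cells. A ratio above 0 was found for 12 of 28 members in shScr cells (42.9%, against 42.2% of all genes) and 17 of 28 in shTFEB cells (60.7%, against 41.9%). Deposited lower and upper bounds of vehicle and ATRA were apart for 23 members in each line, 82.1% where 81.1% and 77.9% of all genes were. The median ratio of the members was −0.10 in shScr and 0.20 in shTFEB cells, where all genes had medians of −0.15 and −0.13. Rescaling by median-of-ratios factors moved the all-gene medians up by 0.15 and 0.13, and upper-quartile factors by 0.12 and 0.03, which turned the members' median in shScr cells to 0.03 and 0.01. Relative to all genes, as deposited, the members' medians were 0.04 and 0.32. Across the 27 members above 0 in all groups the responses of the lines had a Pearson r of 0.90 (Spearman 0.86), against 0.81 (0.91) over all 11052 genes. The 2 responses share no sample, and all genes of a response share the scaling of its libraries.

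**Figure D2:**
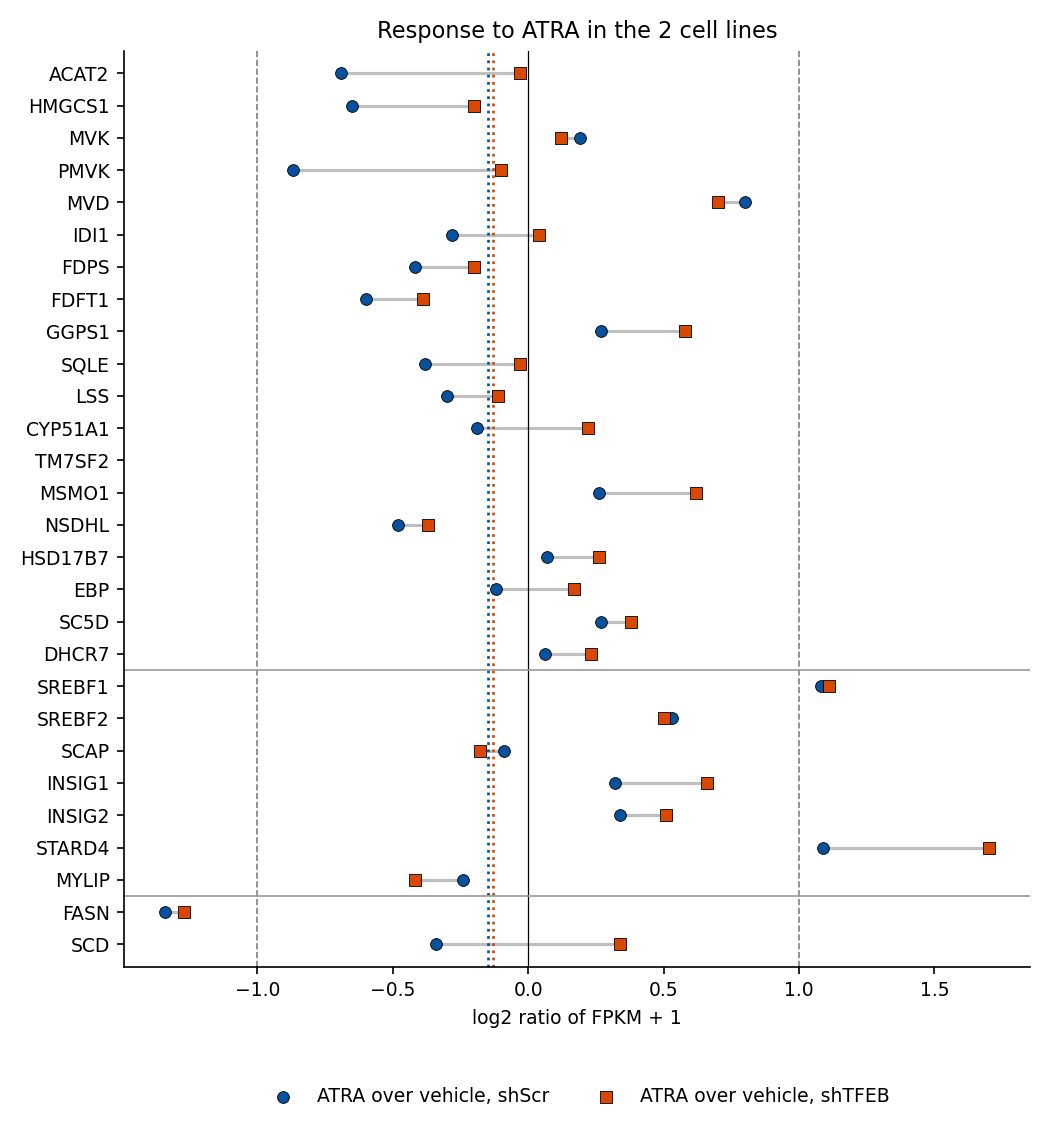
Log2 ratio of ATRA over vehicle for each gene in shScr (blue circles) and shTFEB cells (orange squares), with the 2-fold mark as dashed lines and the median of all genes as dotted lines. SREBF1 and STARD4 lie past the mark on the right and FASN on the left in both lines; TM7SF2, listed at 0 in shScr cells, is left out.

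The enzymes that make mevalonate and its diphosphates did not move as a block. ACAT2, the thiolase that joins acetyl-CoA units in the cytosol, had 76.6, 47.1, 75.1 and 73.6 FPKM. Only the shScr ATRA group was low, giving ratios of −0.69 in shScr and −0.03 in shTFEB cells. ACAT2 shares 558 bases with the chaperonin gene TCP1, which stood at 305, 101, 311 and 154 FPKM. The kit is not stated to mark strand, so fragments of the shared bases cannot be assigned; the part of TCP1 in the result was not tested. HMGCS1, the synthase of the next step, had 64.1, 40.5, 75.9 and 66.1 FPKM, again lowest in shScr ATRA (−0.65 in shScr, −0.20 in shTFEB cells). PMVK, the phosphomevalonate kinase, was also lowest in shScr ATRA, with 17.8, 9.33, 15.7 and 14.5 FPKM (−0.87 and −0.10).

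Both neighbours of these enzymes differed from them. MVK, the mevalonate kinase, lay between 13.7 and 16.0 FPKM in all groups. MVD, the decarboxylase that yields isopentenyl diphosphate, went the other way, with 11.5, 20.9, 14.7 and 24.4 FPKM, 1.81-fold and 1.66-fold higher under ATRA. No ratio of these 5 enzymes reached the mark.

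The isoprenoid steps were lowest in shScr ATRA for 3 of 4 genes. IDI1, the isomerase of isopentenyl diphosphate, had 59.8, 49.0, 56.6 and 58.3 FPKM. FDPS, which makes farnesyl diphosphate, had 112, 83.4, 119 and 103 FPKM. FDFT1, squalene synthase, which commits farnesyl units to sterols, had 91.7, 60.3, 124 and 94.6 FPKM, with ratios of −0.60 in shScr and −0.39 in shTFEB cells. GGPS1, which makes the geranylgeranyl unit used on Rab proteins, was the exception with 4.20, 5.26, 4.06 and 6.54 FPKM. A noncoding model at its locus without a current symbol is not in that sum; with it GGPS1 stood at 8.50, 8.34, 8.57 and 9.96 FPKM and its ratios changed from 0.27 and 0.58 to −0.02 and 0.20.

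In the sterol part of the pathway SQLE, the squalene epoxidase and a control point of the route, had 27.2, 20.6, 26.8 and 26.2 FPKM, and LSS, which closes the sterol rings, 15.3, 12.3, 16.2 and 15.0 FPKM. Both were lowest in shScr ATRA and nearly level in the other 3 groups. NSDHL, a dehydrogenase of sterol demethylation, was lower under ATRA in both lines, at 19.0 and 13.3 FPKM in shScr and 21.7 and 16.6 FPKM in shTFEB cells. MSMO1, the sterol methyl oxidase, was higher under ATRA, at 22.7 and 27.3 FPKM in shScr and 28.5 and 44.3 FPKM in shTFEB cells (0.26 and 0.62). DHCR7, a reductase at the end of the route, had 39.1, 40.8, 47.0 and 55.1 FPKM, and SC5D, a sterol desaturase, 5.23, 6.51, 6.33 and 8.51 FPKM. For MSMO1, DHCR7 and SC5D the shTFEB ATRA group was the highest of the 4. EBP, a sterol isomerase, lay between 86.7 and 106 FPKM, and CYP51A1, the lanosterol demethylase, between 30.6 and 36.3 FPKM.

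HSD17B7, a ketosteroid reductase, had 5.92, 6.24, 6.68 and 8.21 FPKM. Its near-identical copy HSD17B7P2 had 3.75, 4.46, 4.67 and 6.69 FPKM in the same order, and since counting can split fragments between copies both values are uncertain. TM7SF2, a sterol reductase (hg19 chromosome 11, 64879326 to 64883707), is listed at 0 in both shScr groups and at 6.29 and 7.73 FPKM in labelled shTFEB vehicle and shTFEB ATRA. All of that comes from 1 of its 3 models. Some other expressed genes are also listed at 0 in 1 or more groups. No fold is given for TM7SF2, since none can be formed with a value of 0. Its neighbour VPS51, which shares 7 bases with it, had 28.3, 26.6, 24.4 and 20.0 FPKM. Of the 19 enzymes 0 rose and 0 fell with ATRA in either line, where 27.7% of all genes passed the mark in shScr and 22% in shTFEB cells. TM7SF2, at 0 in both shScr groups, could not pass it in shScr cells.

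The 2 enzymes of fatty acid synthesis parted from each other. FASN, the fatty acid synthase (hg19 chromosome 17, 80036214 to 80056106), stood at 63.9, 24.7, 69.7 and 28.4 FPKM. Both ATRA groups were far below both vehicle groups, and FASN fell 2.59-fold in shScr (log2 ratio −1.34) and 2.46-fold in shTFEB cells (−1.27). SREBF1, whose product is known to drive FASN, rose in the same cells. SCD, the stearoyl-CoA desaturase, was the most abundant member per length, at 263, 208, 243 and 308 FPKM. It was lower under ATRA in shScr cells (−0.34) and higher in shTFEB cells (0.34).

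Several members are sums over more than 1 RefSeq model, and 9 of the 28 have at least 2 models that reached 1 FPKM in a group. The 2 models of SREBF1 both went up, unequally: NM_004176 had 10.3, 26.4, 8.66 and 22.8 FPKM (2.57-fold and 2.63-fold), and NM_001005291 5.46, 8.04, 5.21 and 8.43 FPKM (1.47-fold and 1.62-fold). The first model made up 65.3% of SREBF1 in shScr vehicle and 76.7% in shScr ATRA, and 62.5% and 73.0% in shTFEB cells. CYP51A1 shifted in the same way in both lines, its model NM_001146152 going from 54.4% to 63.3% and from 50.5% to 61.9% of the gene. In HMGCS1 the model NM_002130 was 65.2% of the gene in shScr vehicle and 57.9% in shScr ATRA, and 65.3% and 53.9% in shTFEB cells.

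MVK, level as a gene, had 33.9% of its value in NM_001114185 in shTFEB ATRA and 46.3% to 51.0% in the other groups. The FDPS model NM_001135821 is listed at 0 in shScr vehicle and made up 16.3% to 17.9% of the gene in the other groups. INSIG1 had 20.4% and 23.6% in NM_198336 in shScr cells and 21.3% and 26.4% in shTFEB cells, a higher share under ATRA in both lines. How fragments are divided between overlapping models is an estimate of the authors' software, and no spread between samples is given for it.

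**Figure D3:**
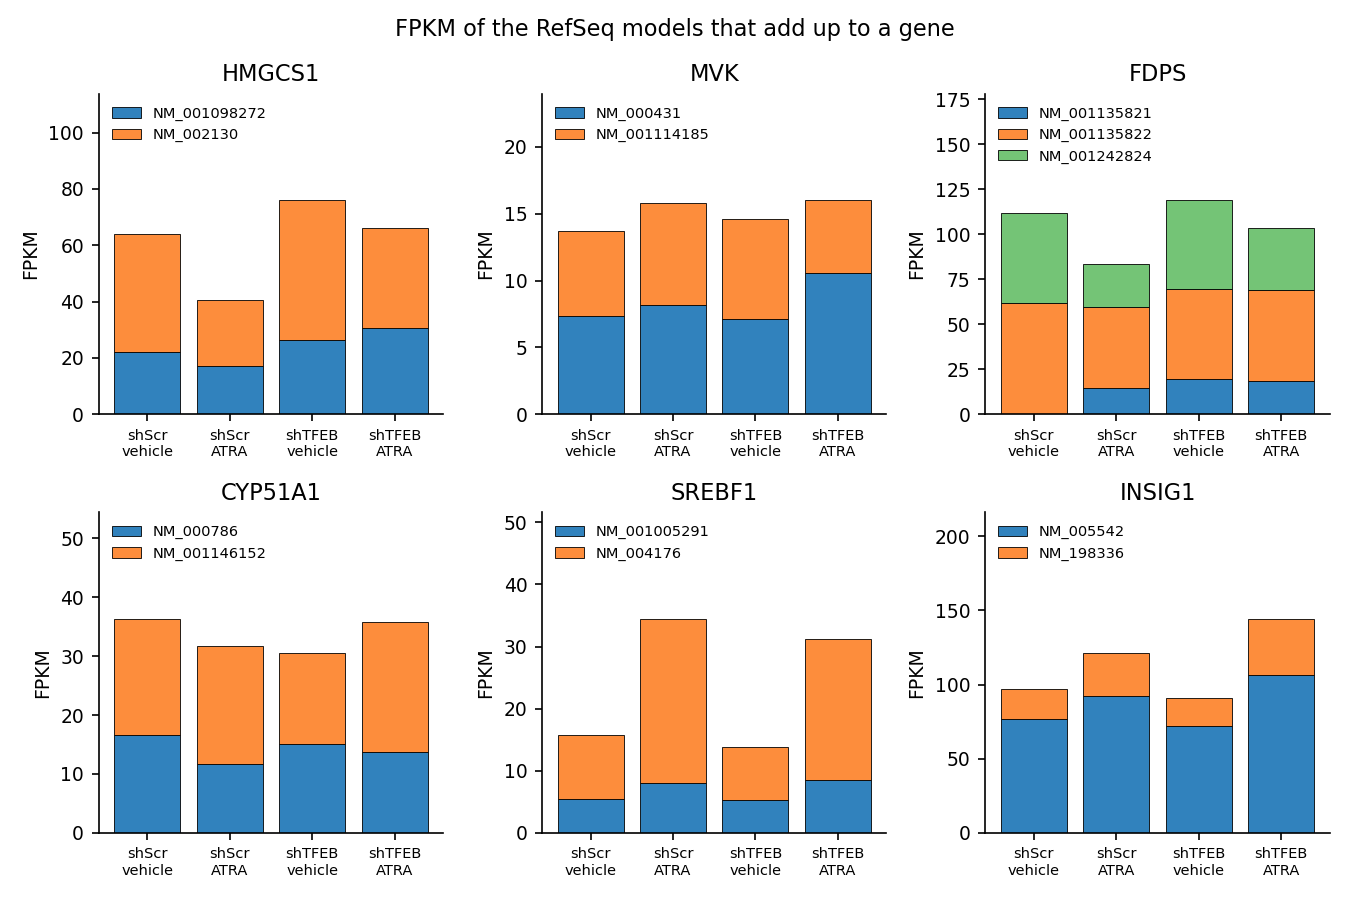
FPKM of the RefSeq models of 6 genes stacked to the gene's sum, by group, for models that reached 1 FPKM in a group. The larger model of SREBF1 is 10.3 and 8.66 FPKM high in the vehicle groups and 26.4 and 22.8 FPKM in the ATRA groups; the scale of each panel starts at 0 and differs between panels.

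Between the lines under vehicle the members lay close together. Of the 28 only TM7SF2 was past the mark, 3.57% of the members where 1.85% of all genes passed (1.06% higher, 0.787% lower), and it is listed at 0 in shScr vehicle. The other 27 ratios lay between −0.24 (CYP51A1) and 0.43 (FDFT1), with 16 of 28 above 0, 57.1% against 55.6% of all genes. FDFT1 (91.7 and 124 FPKM), MVD (11.5 and 14.7 FPKM) and MSMO1 (22.7 and 28.5 FPKM) were the members furthest above in the labelled shTFEB group. The median of the members was 0.08 and that of all genes 0.02; with the highest model of a gene in place of the sum it was −0.01.

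With ATRA, the shTFEB line had more mRNA of each synthesis enzyme than the shScr line, by less than 2-fold apart from TM7SF2. All 19 had a ratio above 0, where 58.9% of all genes did, with a median of 0.33 against 0.06 for all genes. TM7SF2 is listed at 0 in shScr ATRA. The other 18 ran from 0.02 (MVK) to 0.69 (HMGCS1), with a median of 0.32. After either rescaling MVK turned to just below 0, leaving 18 of 19. HMGCS1 stood at 40.5 FPKM in shScr ATRA and 66.1 FPKM in shTFEB ATRA (1.63-fold), MSMO1 at 27.3 and 44.3 FPKM (1.62-fold), FDFT1 at 60.3 and 94.6 FPKM (1.57-fold), ACAT2 at 47.1 and 73.6 FPKM (1.56-fold) and PMVK at 9.33 and 14.5 FPKM (1.56-fold). TCP1, which overlaps ACAT2, had 101 and 154 FPKM. STARD4 was 1.55-fold and SCD 1.48-fold higher. SREBF1 (34.5 and 31.2 FPKM), SREBF2, INSIG2 and MYLIP were the 4 members below 0, at −0.14 to −0.01, so the SREBP genes themselves were not higher.

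Over all 28 members, 24 had a ratio above 0 under ATRA, 85.7% where 58.9% of all genes did, and the median was 0.29 where that of all genes was 0.06. With a mean of at least 5 FPKM these medians were 0.29 and 0.09. Only TM7SF2 passed the 2-fold mark, 3.57% of the members against 4.25% of all genes (2.67% higher, 1.58% lower). The deposited bounds of the lines did not overlap for 24 of the 28 (54.8% of all genes), with 23 higher in shTFEB cells and SREBF1 lower. Under vehicle they did not overlap for 17 (36.8% of all genes), 10 higher and 7 lower. These bounds are no confidence intervals, since 46 of 149 model values of at least 1 FPKM lay outside their own bounds. Between the same ATRA groups the summed granulocyte maturation markers were lower in shTFEB ATRA (769 against 1184 FPKM) and the sum of the cell division markers higher (390.3 against 346 FPKM). Within that sum PCNA (201 against 165 FPKM) and CCNB1 (58.6 against 44.8 FPKM) were higher, TOP2A stood at 66.5 against 62.4 FPKM, and MKI67 was lower (64.1 against 73.1 FPKM). Their part in the result was not tested.

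**Figure D4:**
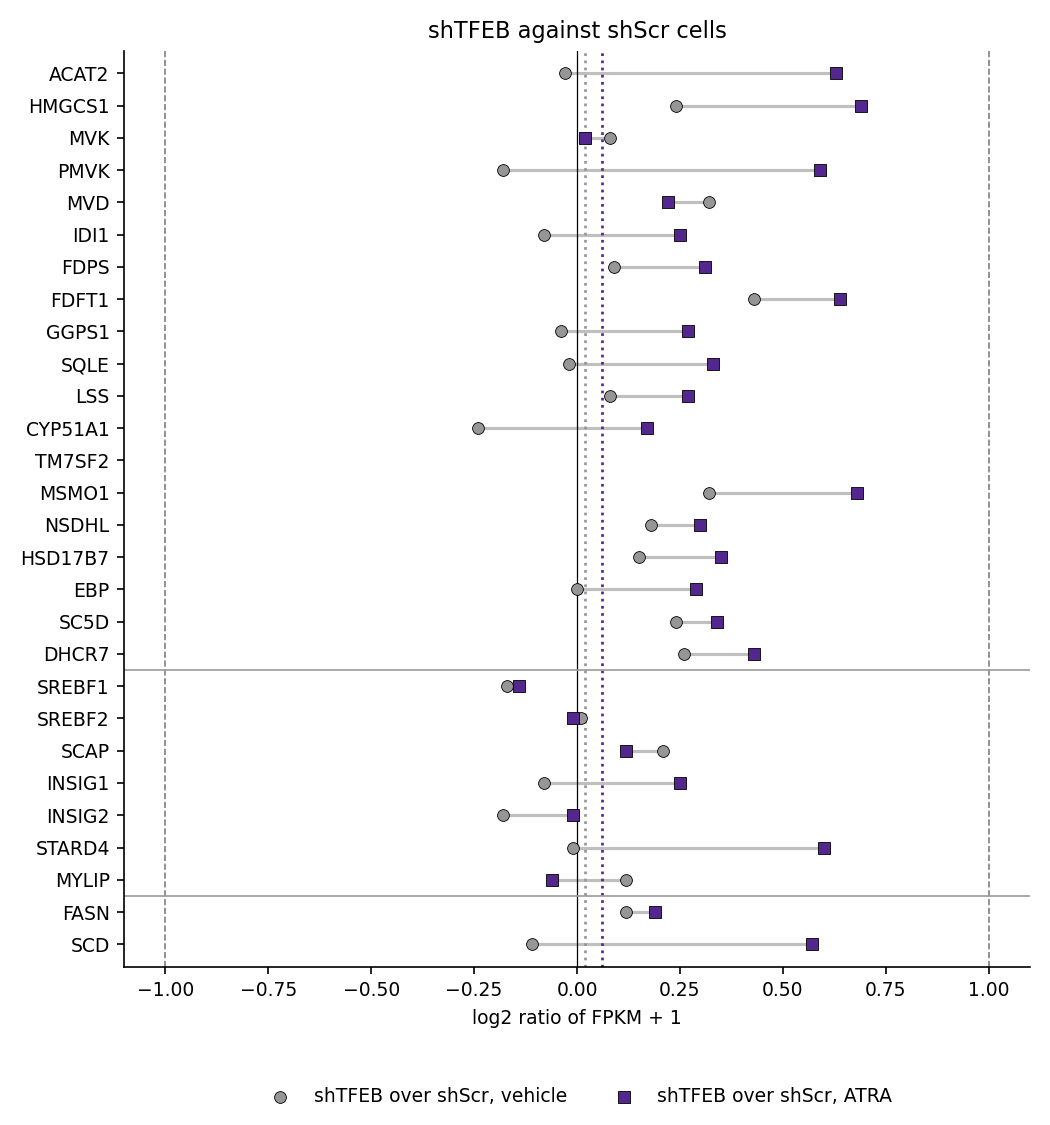
Log2 ratio of shTFEB over shScr for each gene under vehicle (grey circles) and ATRA (purple squares), with the 2-fold mark as dashed lines and the median of all genes as dotted lines; TM7SF2 is left out. Under ATRA all enzymes of cholesterol synthesis in the upper block lie right of 0, from 0.02 to 0.69 (MVK just below 0 after either rescaling), while SREBF1, SREBF2, INSIG2 and MYLIP lie between −0.14 and −0.01.

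Set side by side, the responses of the 2 lines differed by less than 2-fold for every member (0 of 28 past the mark, against 4.29% of all genes, 2.42% higher and 1.86% lower). The difference, shTFEB minus shScr, was above 0 for 23 of 28 members (82.1%, against 56.1% of all genes), with a median of 0.21 where all genes had 0.04 (0.12 and −0.04 after upper-quartile rescaling). TM7SF2 is listed at 0 in both shScr groups, so its difference (0.26) is its shTFEB ratio alone. Without it 22 of 27 members were above 0. The difference was largest for PMVK (0.76), SCD (0.68), ACAT2 (0.66) and STARD4 (0.61), and lowest for MYLIP (−0.18). SREBF1, SREBF2 and FASN responded alike in size, with differences of 0.03, −0.02 and 0.07. These differences use the same 4 values as the comparisons above and are not further evidence for them.

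Genes next to the pathway were taken from 4 lists chosen for their roles. Of 18 genes of SREBP processing and turnover, 1 rose and 3 fell in shScr cells and 1 rose and 1 fell in shTFEB cells, with medians of −0.36 and −0.35. Over all genes 27.7% and 22% passed the mark in these comparisons, which holds for the next 3 lists too. After either rescaling 2 of the 18 rose and 2 fell in shScr cells. The 1 that fell in shTFEB cells, ERLIN1, was under the mark after either rescaling. ERLIN1, part of a complex that marks INSIG and sterol-regulated enzymes for degradation, stood at 71.8, 26.1, 63.3 and 30.9 FPKM (log2 ratios −1.43 and −1.01). TMEM97, an SREBP target gene, had 51.0, 18.7, 44.6 and 24.9 FPKM (−1.40 and −0.81), and the deubiquitinase gene USP20 11.1, 26.2, 11.4 and 29.6 FPKM (1.17 and 1.31). The proteases that cut SREBP, MBTPS1 and MBTPS2, were not past the mark.

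Among 26 compared genes of 31 of fatty acid synthesis and desaturation, 3 rose and 4 fell in shScr cells and 4 rose and 4 fell in shTFEB cells (3 fell in shScr cells without SLC25A1, listed at 0). ACSL1, ACSL4 and ACSL5, which activate fatty acids, rose in both lines, ACSL1 from 26.9 to 97.3 and from 29.0 to 96.0 FPKM. The elongase gene ELOVL3 had 15.9, 0.742, 16.2 and 3.73 FPKM, and HACD1, a dehydratase of elongation, 3.91, 0.0445, 3.95 and 0.0512 FPKM; both fell in both lines. SLC25A1, the citrate carrier that supplies acetyl-CoA, had 4.22 and 5.06 FPKM in the vehicle groups and 3.12 FPKM in shTFEB ATRA and is listed at 0 in shScr ATRA.

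The branch towards dolichol, ubiquinone and protein prenylation had 22 compared genes of 24, of which 0 rose and 6 fell in shScr cells and 0 rose and 4 fell in shTFEB cells (medians −0.39 and −0.34). COQ3, a ubiquinone methyltransferase, had 16.2, 4.85, 12.9 and 5.42 FPKM, and CHML, a Rab escort protein, 11.0, 2.53, 9.54 and 2.58 FPKM. PDSS1 is listed at 0 in shScr ATRA and FNTB in both ATRA groups, and they are counted above as having fallen; without genes listed at 0, 4 fell in shScr and 3 in shTFEB cells. Of 23 compared genes of 31 of sterol transport, oxysterols and LXR, 2 rose and 4 fell in shScr and 2 rose and 6 fell in shTFEB cells. ABCA1, the LXR-controlled cholesterol exporter, went from 2.18 to 21.6 and from 2.78 to 15.6 FPKM, and NPC2, which hands cholesterol out of lysosomes, from 25.0 to 126 and from 18.2 to 120 FPKM (log2 ratios 2.29 and 2.65). RXRA, the partner of LXR and of the retinoic acid receptors, fell from 29.4 to 7.20 and from 26.5 to 4.74 FPKM, and NR1H3, which encodes an LXR, is listed at 0 in both ATRA groups. Without NR1H3, 3 of the sterol genes fell in shScr and 5 in shTFEB cells. With median-of-ratios rescaling 4 sterol genes rose in shScr cells in place of 2.

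**Figure D5:**
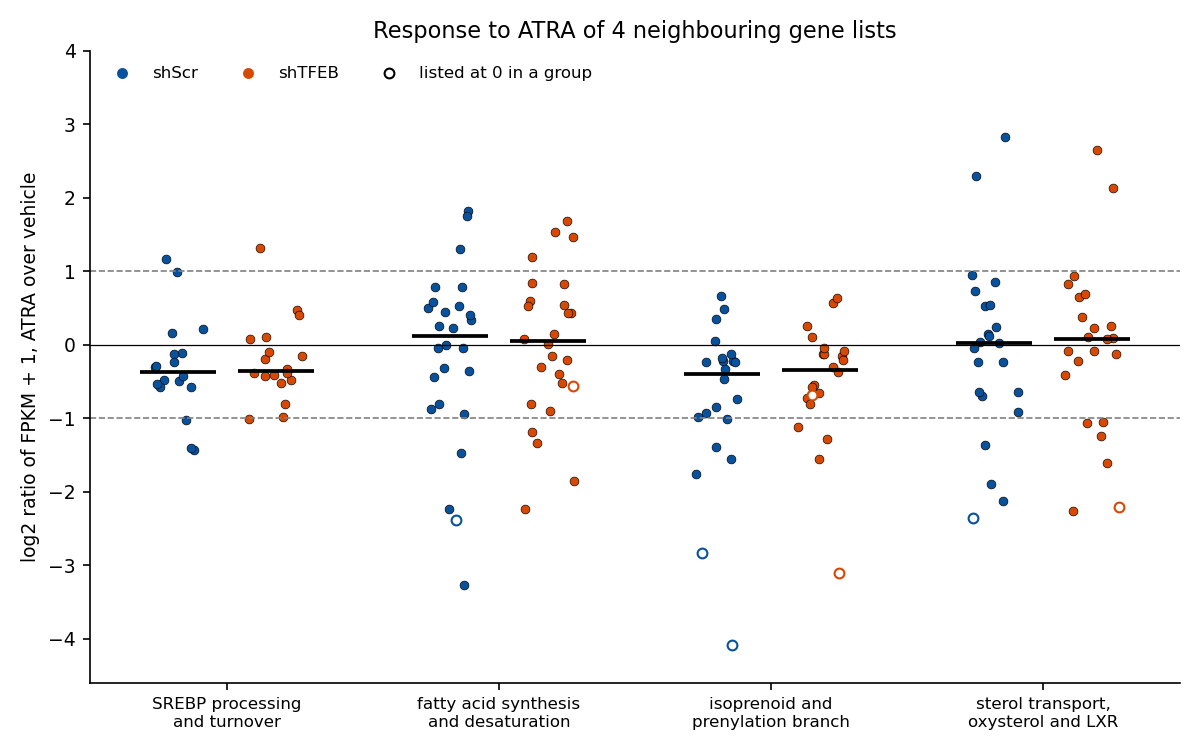
Log2 ratio of ATRA over vehicle for the compared genes of 4 neighbouring lists in shScr (blue) and shTFEB cells (orange), 1 point per gene with sideways jitter; bars are list medians, dashed lines the 2-fold mark and open points genes listed at 0 in a group. The medians are −0.36 and −0.35, 0.11 and 0.04, −0.39 and −0.34, and 0.03 and 0.08.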

How the data were processed

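The FPKM were made by the authors before deposit: per the submitters' processing notes, with TopHat, Cufflinks and Cuffdiff on hg19. Versions, and how the 2 samples of a group were combined, are not given in the sources used here. The 4 deposited tables hold 65986 models each, with 1 FPKM and a lower and an upper bound. RefSeq accessions were matched to symbols of a GRCh38.p14 gene table (96.8% matched), and FPKM and bounds were summed per symbol; gene coordinates are those of hg19, counted from 1. Genes whose 4 groups averaged 1 FPKM or more were compared as log2((FPKM + 1)/(FPKM + 1)) with Python 3.11.15, and the code was tested on simulated data. A ratio of 1 in size was the mark; no test was possible with 1 value per group. Relative depth is the commonest ratio of values under 0.1 FPKM between groups. Every member is named; each neighbouring list was counted whole and up to 4 genes with the largest response named. ACSL4, ACSL5, MBTPS1, MBTPS2, STAR, the genes sharing a locus and the INSIG1 stretch were chosen after values were seen. Promoter windows come from RefSeq. As alternatives, 0.1 or 5 FPKM was added before the log, the filter was dropped or raised to 5 FPKM, groups were rescaled by upper quartiles or by median ratios, and a gene was read from its top model, from models of status OK, or by its bounds. Leaving out members or list genes listed at 0, adding the unnamed model to GGPS1 and counting opposite signs after rescaling were chosen after seeing the data. Some genes of the pathway are not reported here. The members and lists were chosen with earlier results of these data known.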

Additional observations from a re-analysis of the deposited data

Results flagged for a closer look

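With 1 value per group, the responses of 4 members to ATRA had opposite signs in the lines, and these differences were not tested. The log2 ratio was −0.28 in shScr and 0.04 in shTFEB cells for IDI1, −0.19 and 0.22 for CYP51A1, −0.12 and 0.17 for EBP, and −0.34 and 0.34 for SCD. Each is under the 2-fold mark. Which members have opposite signs depends on the scaling: there were 8 after median-of-ratios rescaling (ACAT2, CYP51A1, IDI1, LSS, PMVK, SCAP, SCD and SQLE) and 6 after upper-quartile rescaling (ACAT2, CYP51A1, IDI1, SCAP, SCD and SQLE), and EBP was in neither set.

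A noncoding model at the GGPS1 locus, which has no symbol in the gene table and entered no comparison, was listed at 4.30 and 3.08 FPKM in shScr cells under vehicle and ATRA, and at 4.51 and 3.43 FPKM in the labelled shTFEB cells.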

How the results depend on the processing

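No paired analysis was possible because each group has 1 deposited value, in which its 2 samples are combined; for the same reason no sample could be left out. Counts of members past the mark kept within 1.5 times their value except as follows. With a pseudocount of 5 FPKM 0 members rose in shScr and 1 in shTFEB cells, since the ratios of SREBF1 became 0.93 and 0.94 and that of STARD4 in shScr cells 0.84, while FASN stayed past the mark in both. With a mean of at least 5 FPKM, or without members listed at 0, 0 members were past the mark between the lines under vehicle and 0 under ATRA. The median of the members in shScr cells became 0.03 with median-of-ratios and 0.01 with upper-quartile rescaling; that in shTFEB cells became 0.34 with median-of-ratios rescaling, and that between the lines under ATRA 0.19 with upper-quartile rescaling. With upper-quartile rescaling the median difference of the responses became 0.12 (0.21 as deposited), and with the highest model of a gene the median between the lines under vehicle became −0.01 (0.08 for the sum). Over all genes a pseudocount of 5 FPKM lowered the counts past the mark (higher, lower) from 1384 and 1676 to 873 and 949 in shScr cells, from 1270 and 1159 to 795 and 582 in shTFEB cells, from 117 and 87 to 70 and 48 between the lines under vehicle and from 295 and 175 to 170 and 101 under ATRA. A pseudocount of 0.1 FPKM raised the higher count between the lines under vehicle to 211. With the filter at 5 FPKM the all-gene median was −0.22 in shScr and −0.16 in shTFEB cells, where the members had −0.12 and 0.17. For the difference of responses it was 0.07, where the members had 0.21. The filter at 5 FPKM lowered the counts to 67 and 52 under vehicle and the lower count under ATRA to 110, and asking for bounds apart left 72 and 50 under vehicle. For the difference of responses the lower count went from 206 to 126 (5 FPKM pseudocount) and 127 (filter at 5 FPKM). With a pseudocount of 5 FPKM the genes that fell in shTFEB cells went from 4 to 1 in the isoprenoid branch, from 6 to 3 among sterol genes and from 4 to 2 among fatty acid genes, and those that fell in shScr cells from 4 to 2 among fatty acid genes; the filter at 5 FPKM gave 2 and 2 for fatty acid genes. Of SREBP processing genes 0 to 2 rose in shScr and 0 to 2 fell in shTFEB cells over the alternatives. A fold under 2 between single values has no replicate check at any depth.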
